A study of Mus musculus with 189 samples.

Results

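The genes described here are 10 parts of the machinery by which a mast cell releases its granules: Stxbp2, Snap23, Stx3, Vamp8, Vamp7, Rab27a, Rab27b, Unc13d, Rab3d and Syt3. They were chosen by name, with no measured value in the rule, and all 10 were found among the 46078 gene rows of the count table. Each was read as CPM, its reads over all endogenous reads of the cell, scaled to a common total, in cells with at least 100000 such reads.

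Mast cells store histamine, proteases and cytokines in secretory granules, which fuse with the plasma membrane and with each other when the cell is activated. Fusion is driven by SNARE proteins, of which a vesicle SNARE (a VAMP) pairs with a syntaxin and a SNAP-25 family protein on the target membrane. Sec1/Munc18 proteins such as Munc18-2 hold and guide the syntaxin, Munc13 proteins prime the granule, Rab GTPases bring it to the membrane, and synaptotagmins sense calcium.

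The series sequenced the RNA of single peritoneal cells of female C57BL/6 mice, in groups of 94 mature mast cells and 95 basophil-mast cell progenitors (BMCPs). Both groups were sorted as live cells without lineage markers that carried c-Kit and the IgE receptor FcεRI, with no allele, agent, treatment or age in the labels. The gate for mature mast cells took low integrin β7 with high side scatter, and that for BMCPs the reverse. Cells came from 4 mice, and no label says which cell came from which, so a group is 1 pooled sample here and no difference between the groups was tested.

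The 94 mature mast cells had 561600 to 2152221 endogenous reads (median 1255267), and the 93 BMCPs that passed the read minimum had 344022 to 2091665 (median 1247890). BMCPs numbered 6 and 93, with 3978 and 36972 reads, were left out. The groups differed in RNA relative to the spike-in: the median ratio of endogenous to spike-in (ERCC) reads was 939.1 in mature mast cells and 562.0 in BMCPs. Granule protein genes took a median of 28.2% of a mature cell's reads and 17.03% of a BMCP's, a difference that moves the CPM of every other gene. The summed CPM of 7 defining mast cell genes had a median of 253300 in mature mast cells (112400 to 328700) and 161600 in BMCPs (348.0 to 323100), and none of the 7 was at 0 in either group. BMCPs numbered 46 and 80 went against their label, with sums of 348.0 and 472.9 CPM against 24140 to 323100 in the other 91 BMCPs. They also held 9783 and 5576 reads of Cd79a, a B cell receptor component. Vamp8 had 665 reads in BMCP 46 and Unc13d 487 reads in BMCP 80, and no other of the 10 genes had more than 6 reads in either. Markers of other cells, which could bring their own exocytosis genes, were summed too. The highest sums in a mature mast cell and in a BMCP were 1.601 and 0.986 CPM for neutrophils and 0.699 and 345.9 for NK cells. They were 322.1 and 805.1 CPM for eosinophils and 2041 and 1570 for T cells, and the median of each of these lists was 0. Platelet and megakaryocyte markers (mostly Itga2b) reached 1305 and 3557 CPM, and macrophage markers (mostly Apoe) 11830 and 9134. B cell markers reached 1355 CPM in a mature mast cell and 71090 in a BMCP, with medians of 103.9 and 3.19. Of these, Ighm was clearly read in 45 mature mast cells and 24 BMCPs, Cd79b in 7 and 5, Cd74 in 1 and 4, and Cd79a in 0 and 2. The sum of 5 basophil markers ran from 4.33 to 30540 CPM in mature mast cells (median 933.8) and from 3.64 to 37350 CPM in BMCPs (median 1430.0), with Cebpa at 0 in both groups. Among them Mcpt8, a basophil protease, was at 30.2 and 3294 CPM and clearly read in 9 and 40 cells, while Prss34 was at 2899 and 1580.0 CPM. The part of basophil-like cells, or of any other of these cell types, in the levels of the 10 genes was not tested.

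Promoter sequence was found in the RefSeq promoter table (GRCm38.p6) for 7 of the 10 genes, with 8 start sites in all, and the 250 bases before each start were searched. A few stretches are shown for genes that contrast in how many cells read them: Snap23, read clearly in fewer BMCPs, Vamp8, read in nearly all cells, and Syt3, read in a handful of mature mast cells. The 30 bases before the RefSeq start of Stxbp2, which lies inside the longer GENCODE gene span given below, are shown for the E-box CACGTG (in capitals), the palindromic core bound by MITF and related factors.
Snap23 (chr2:120567421-120567670, + strand): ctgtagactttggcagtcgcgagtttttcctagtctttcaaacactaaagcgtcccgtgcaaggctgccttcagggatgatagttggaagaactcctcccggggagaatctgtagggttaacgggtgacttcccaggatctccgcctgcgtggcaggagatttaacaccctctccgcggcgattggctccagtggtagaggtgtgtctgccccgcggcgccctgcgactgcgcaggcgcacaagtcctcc
Vamp8 (chr6:72390704-72390917, - strand): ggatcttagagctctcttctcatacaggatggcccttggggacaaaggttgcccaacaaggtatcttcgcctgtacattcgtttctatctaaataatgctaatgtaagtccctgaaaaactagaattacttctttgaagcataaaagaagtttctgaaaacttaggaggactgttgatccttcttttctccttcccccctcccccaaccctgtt
Syt3 (chr7:44383876-44384101, + strand): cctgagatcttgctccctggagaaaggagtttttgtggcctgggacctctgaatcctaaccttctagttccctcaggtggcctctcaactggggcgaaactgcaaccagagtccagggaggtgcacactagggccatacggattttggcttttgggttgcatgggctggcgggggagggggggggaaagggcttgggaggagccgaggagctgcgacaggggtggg
Stxbp2 (chr8:3631079-3631108, + strand): cccacggggtggggccCACGTGgatgacgc
The start of Snap23 was rich in CpG, with 17 CpG in 250 bases, as were those of Stxbp2 (17), Rab3d (18) and the upstream Rab27a start (14). Vamp8 had 3 CpG, Stx3 6, Syt3 8 and the downstream Rab27a start 5, against a median of 6 (quartiles 2 and 16) over all 32851 promoters of that length. CACGTG, which reads alike on both strands, was present before 2 of the 8 starts, those of Stxbp2 and the downstream start of Rab27a, and before 6.02% of all promoters. For both Rab27a starts, unlike the others, the bases just after the start were found in no GENCODE transcript of the gene. That Rab27a start is therefore uncertain. The GATA motif AGATAA, the M-box TCATGTG and the AP-1 motif TGACTCA, each searched on both strands, were found before none of the 8 starts and before 9.99%, 3.25% and 4.46% of all promoters. A match is a description of letters and not a measured binding site.

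The core of the fusion machinery was read in both groups, but its parts were spread over cells in different ways. Intervals on pooled CPM are exact Poisson and those on shares of cells exact Clopper-Pearson, both at 95%, and they cover counting error only: PCR copies were counted as separate reads, and the spread between mice, which cells of 1 pooled sample do not show, is not in them. A cell was counted as clearly reading a gene with at least 50 reads of it, since between 97.1% and 99.9% of the reads of each gene in each group came from such cells. Ratios are log2 of mature over BMCP pooled CPM, each with 1 CPM added. Gene coordinates are those of GRCm38. Over the 10556 genes that reached 5 CPM in a group the median of this ratio was -0.25 (0.67 under scaling to ERCC reads). A gene at 0 thus stood above the typical gene by endogenous reads and below it under ERCC scaling.

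**Figure D1:**
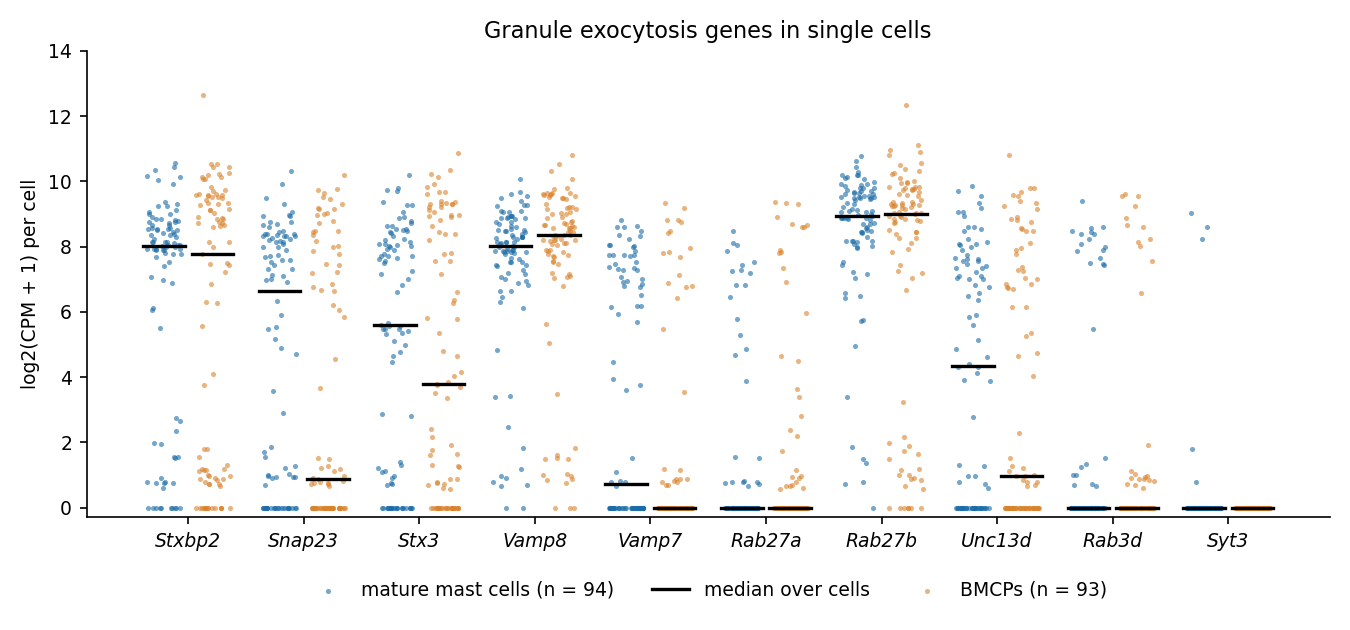
Level of each of the 10 genes, as log2(CPM + 1), in every kept cell, mature mast cells (n = 94) beside BMCPs (n = 93). Each point is 1 cell and the line the median: Vamp8 and Rab27b were read in nearly all cells, Rab27a and Rab3d were at 0 in most, and Syt3 was read in 5 mature mast cells and in no BMCP.

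Munc18-2, encoded by Stxbp2 (ENSMUSG00000004626, chromosome 8, 3630955 to 3643644), is the Sec1/Munc18 protein that partners Stx3 and Stx11 in mast cell and cytotoxic cell secretion. Its level in single cells ran from 0 to 1505 CPM in mature mast cells (median 259.4) and from 0 to 6387 CPM in BMCPs (median 216.6). The groups overlapped throughout, and the BMCPs were the more uneven, with both more cells at the bottom and higher cells at the top. Pooled over cells, Stxbp2 was at 293 CPM (290.0 to 296) in the mature cells and 404 CPM (400 to 408) in the BMCPs, a log2 ratio of -0.46. Against that lower pooled level, more mature mast cells read it clearly: 68 of 94 (72.3%, 62.2 to 81.1) against 55 of 93 BMCPs (59.1%, 48.5 to 69.2). Within the clearly reading cells the median was 336.8 CPM in the mature cells and 632.7 CPM in the BMCPs. BMCP 55 alone held 12.5% of the BMCP reads, and without it the log2 ratio was -0.28. The direction turned under ERCC scaling (0.45).

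Snap23 (ENSMUSG00000027287, chromosome 2, 120567671 to 120601255) encodes the SNAP-25 family protein of non-neuronal cells, which sits on the plasma membrane and moves to granule membranes during compound exocytosis. It ran from 0 to 1264 CPM in mature mast cells, with a median of 100.2, and from 0 to 1163 CPM in BMCPs, with a median of 0.825. The top cells were alike in the groups, while the median BMCP had almost no reads. Clear reads were found in 51 mature mast cells (54.3%, 43.7 to 64.6) and 35 BMCPs (37.6%, 27.8 to 48.3). The median among those cells was 291.4 and 347.4 CPM. Pooled, it stood at 174 CPM (172 to 177) and 140 CPM (138 to 143), a log2 ratio of 0.31 that was 1.22 under ERCC scaling, and in the first of the number blocks into which the table's columns fall the ratio was -0.01.

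Stx3 (ENSMUSG00000041488, chromosome 19, 11775118 to 11819403) encodes a syntaxin found on the plasma membrane and on granules. Single mature mast cells ran from 0 to 1172 CPM (median 46.9) and single BMCPs from 0 to 1852 CPM (median 12.7). As with Stxbp2, BMCPs had the lower median and the higher maximum. It was clearly read in 50 mature mast cells (53.2%, 42.6 to 63.6) and 41 BMCPs (44.1%, 33.8 to 54.8), at medians of 269.7 and 499.7 CPM. The pooled level was 182 CPM (180.0 to 185) in the mature cells and 238 CPM (235 to 241) in the BMCPs, a log2 ratio of -0.38 that was -0.24 without BMCP 22 and 0.53 under ERCC scaling.

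Vamp8 (ENSMUSG00000050732, chromosome 6, 72385223 to 72390703) encodes the vesicle SNARE on which release of mast cell granule mediators largely depends. It was the most evenly read of the SNARE genes, from 0 to 1067 CPM with a median of 255.8 in mature mast cells and from 0 to 1789 CPM with a median of 324.5 in BMCPs. Nearly every cell of both groups had a read, 92 of 94 and 90 of 93. Clear reads were in 81 mature mast cells (86.2%, 77.5 to 92.4) and 78 BMCPs (83.9%, 74.8 to 90.7). The pooled level of 295 CPM (292 to 298) in mature mast cells stood below the 389 CPM (386 to 393) of BMCPs, a log2 ratio of -0.40, which was 0.51 under ERCC scaling. Per kilobase of exon, Vamp8 had the highest pooled level of the 10 genes in both groups, 127.5 and 168.4 CPM per kb.

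Vamp7 (ENSMUSG00000051412) encodes a longin-type vesicle SNARE of lysosomes and secretory lysosomes. In GRCm38 it lies on the unplaced scaffold GL456233.1 (10738 to 39148), and a pseudogene on chromosome 2 had 256 reads in the mature group and 117 in the BMCPs, so how reads were split between them is uncertain. Its range was 0 to 447.8 CPM in mature mast cells, with a median of 0.651, and 0 to 638.7 CPM in BMCPs, with a median of 0. Vamp7 had the widest gap of the 10 in the share of cells: 37 mature mast cells (39.4%, 29.4 to 50.0) and 16 BMCPs (17.2%, 10.2 to 26.4) read it clearly. Without BMCPs 46 and 80 the BMCP share was 17.6% (16 of 91). Every cell was also thinned to 100000 reads, with a cutoff of 5 reads in place of 50. The shares were then 39.4% (37 of 94) and 18.3% (17 of 93). In the first number block of the columns the shares at 50 reads were 42.6% and 14.9%, and in the other 36.2% and 19.6%. The pooled level was 80.3 CPM (78.7 to 81.95) and 47.7 CPM (46.4 to 48.9), a log2 ratio of 0.74 that was positive under every scaling tried and 1.64 under ERCC scaling.

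Rab27b (ENSMUSG00000024511, chromosome 18, 69979131 to 70141605) and Rab27a (ENSMUSG00000032202, chromosome 9, 73044854 to 73097629) encode paralogous GTPases that tether granules at the cell periphery. Rab27b ran from 0 to 1758 CPM in mature mast cells (median 492.0) and from 0 to 5207 CPM in BMCPs (median 511.3), and its pooled level was 555 CPM (551 to 559) and 590.0 CPM (586 to 594). The log2 ratio of -0.09 was small and changed sign with the scaling (0.12 with TMM factors, 0.82 with ERCC), and it was -0.02 without BMCP 40. It carried 30.7% of all reads of the 10 genes in the mature cells and 28.5% in the BMCPs. Clear reads were in 86 mature mast cells (91.5%, 83.9 to 96.2) and 70 BMCPs (75.3%, 65.2 to 83.6). Without BMCPs 46 and 80 the BMCP share was 76.9% (66.9 to 85.1).

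Rab27a was the contrast to its paralog, being read clearly in 14 mature mast cells (14.9%, 8.39 to 23.7) and 14 BMCPs (15.1%, 8.48 to 23.97). Its cells ran from 0 to 354.6 CPM and from 0 to 656.2 CPM, with a median of 0 in both groups. The shares were alike, while the clearly reading BMCPs had a median of 383.4 CPM and the mature mast cells 152.3 CPM. The pooled level was 26.2 CPM (25.3 to 27.1) in the mature cells and 57.3 CPM (55.9 to 58.7) in the BMCPs. The log2 ratio of -1.10 passed 2-fold, but without BMCP 27 it was -0.89. It was negative under every scaling of the pooled reads but short of 2-fold under several: -0.89 with TMM factors, -0.91 with granule genes left out of the totals, and -0.21 with ERCC scaling (-0.42 without BMCP 55). A same-strand gene, Gm27186, covers 3.84% of its exon bases. Most cells that clearly read Rab27a also read Rab27b among mature mast cells, with 13 reading both and 1 reading Rab27a without Rab27b. Among BMCPs 8 read both and 6 read Rab27a alone.

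Rab3d (ENSMUSG00000019066, chromosome 9, 21907491 to 21918192) encodes the Rab3 GTPase of exocrine and mast cell granules. Its cells ran from 0 to 671.8 CPM in mature mast cells and from 0 to 776.1 CPM in BMCPs, with a median of 0 in both. A minority read it clearly, 17 mature mast cells (18.1%, 10.9 to 27.4) and 12 BMCPs (12.9%, 6.85 to 21.5). The pooled levels of 56.1 CPM (54.8 to 57.5) and 49.04 CPM (47.8 to 50.3) gave a log2 ratio of 0.19, which was -0.02 without mature mast cell 54, 0.46 without BMCP 60, -0.08 with DESeq2 size factors and 1.09 with ERCC scaling.

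Munc13-4, encoded by Unc13d (ENSMUSG00000057948, chromosome 11, 116062095 to 116077961), primes granules and binds Rab27. Single cells ran from 0 to 932.1 CPM with a median of 19.4 in mature mast cells and from 0 to 1805 CPM with a median of 0.935 in BMCPs. It was clearly read in 42 mature mast cells (44.7%, 34.4 to 55.3) and 36 BMCPs (38.7%, 28.8 to 49.4). The pooled level was 131 CPM (129 to 133) and 152 CPM (150 to 154). Its log2 ratio of -0.21 stood near the median of all genes, was -0.34 without mature mast cell 90 and -0.06 without BMCP 34, and was 0.70 under ERCC scaling.

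Syt3 (ENSMUSG00000030731, chromosome 7, 44384102 to 44400187) encodes a synaptotagmin, a family of membrane proteins with calcium-binding C2 domains. It was read in 5 mature mast cells and in no BMCP. The reads were 861 in mature mast cell 93, 562 in cell 42, 318 in cell 71, 4 in cell 10 and 1 in cell 21, so almost all of them lay in 3 cells, at 520.7, 383.8 and 301.2 CPM. Clear reads were thus in 3 of 94 mature mast cells (3.19%, 0.663 to 9.05) and 0 of 93 BMCPs (up to 3.89%). The pooled 14.7 CPM (14.01 to 15.4) was at least 585.4-fold higher than a floor of 3 BMCP reads over the group (0.0251 CPM). That is a bound on reads that rests on those 3 cells, mature mast cell 93 holding 49.3% of the reads. It does not bound the share of cells, whose intervals in the groups overlap. The log2 ratio was 3.97, and 3.10 without mature mast cell 93.

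Summed over the 10 genes, the reads made up 1808 CPM (1800.0 to 1815) in the mature cells and 2068 CPM (2060.0 to 2076) in the BMCPs. Single cells ran from 4.41 to 4536 CPM in mature mast cells (median 1753, quartiles 1373 and 2136) and from 24.02 to 7992 CPM in BMCPs (median 1881, quartiles 1251 and 2733). The groups lay on top of each other and BMCPs spread more widely, with a coefficient of variation of 0.602 against 0.411. The log2 ratio of the sums, -0.19, was 0.02 with TMM factors and 0.72 with ERCC scaling.

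Of the 10 genes, 4 had a positive and 6 a negative log2 ratio, with a median of -0.15 beside -0.25 for all genes. Past 2-fold were Syt3, higher in mature mast cells, and Rab27a, higher in BMCPs. Under ERCC scaling those past 2-fold were Snap23, Vamp7, Rab3d and Syt3, all higher in mature mast cells, and Rab27a was not among them. Without BMCP 55 that scaling gave 0.88 for Rab3d and 1.00 for Snap23. BMCP 55 was an outlying cell, with the lowest TMM factor of all kept cells (0.515) and 6387 CPM of Stxbp2. Of all 10556 genes 29.1% were past 2-fold, 9.9% higher in mature mast cells and 19.2% higher in BMCPs, so 2 of 10 does not exceed the background.

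**Figure D2:**
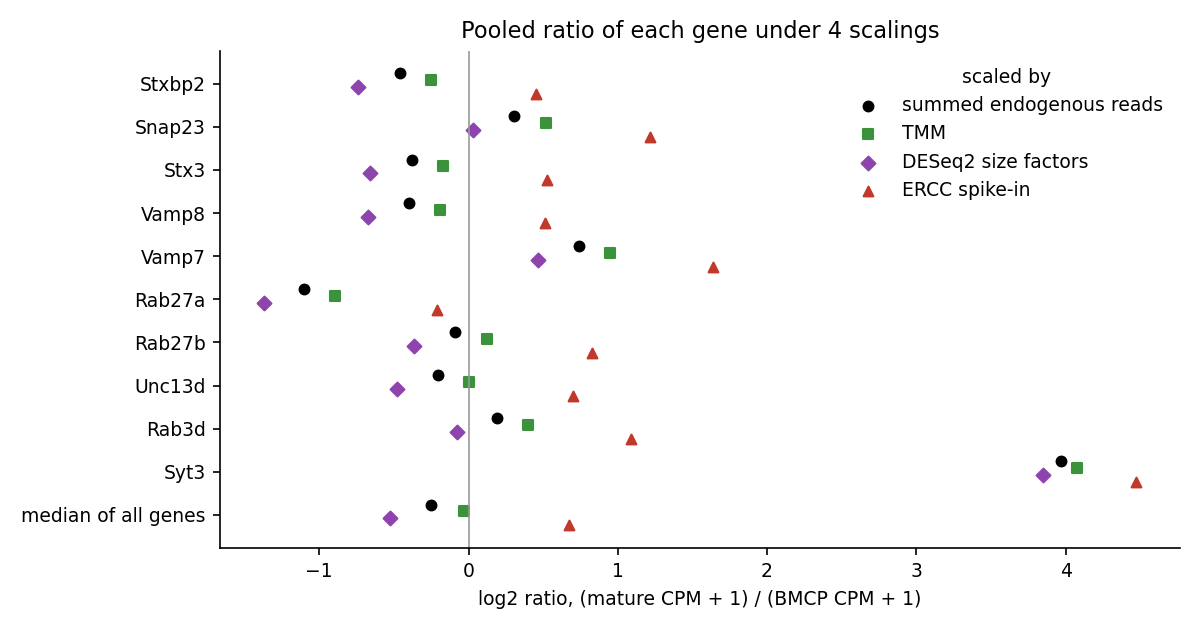
Log2 ratio of pooled CPM + 1 (mature over BMCP) of the 10 genes and the median of all genes, scaled by summed endogenous reads, TMM factors, DESeq2 size factors or ERCC reads. Stxbp2, Stx3, Vamp8, Rab27b and Unc13d lie below 0 by endogenous reads and above 0 under ERCC scaling, and Rab3d falls on either side of 0.

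The share of cells and the level within them went opposite ways. For 9 of the 10 genes a smaller share of BMCPs than of mature mast cells had clear reads, Rab27a being the exception, against 62.1% of all genes. For 9 of the 9 genes with at least 3 such cells in each group the median level in those cells was higher in BMCPs, against 84.4% of the 8423 genes that could be compared. Both held for 8 of the 9, against 56.7%. Most genes took the same direction, and no difference between the 10 genes and the rest was tested. Mature mast cells also had more RNA per spike-in read, and the part of RNA content in the shares was not tested. The smaller BMCP share was found for 9 genes with every cell thinned to 100000 reads, at a cutoff of 5 reads. It was found for 7 and 8 in the number blocks of the columns.

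**Figure D3:**
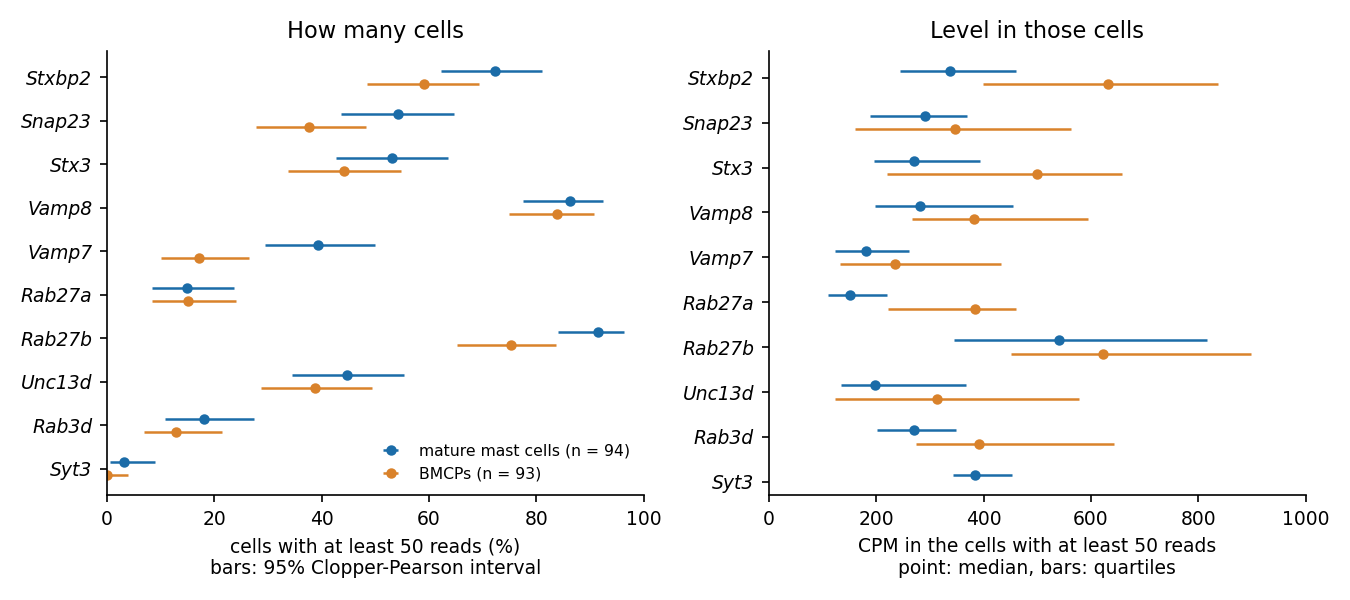
Percent of cells with at least 50 reads of each gene (exact 95% intervals) and the median CPM of those cells with its quartiles, for mature mast cells (n = 94) and BMCPs (n = 93). The BMCP share is the lower for all but Rab27a, and the BMCP level is the higher for all 9 genes read clearly there.

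The 4 genes that would meet in one fusion complex, Stxbp2, Snap23, Stx3 and Vamp8, were all read in the same cell in 49 of 94 mature mast cells (52.1%, 41.6 to 62.5) and 33 of 93 BMCPs (35.5%, 25.8 to 46.1). With at least 50 reads of each, the counts were 18 (19.1%, 11.8 to 28.6) and 12 (12.9%, 6.85 to 21.5). After thinning to 100000 reads, 25 mature mast cells (26.6%, 18.01 to 36.7) and 14 BMCPs (15.1%, 8.48 to 23.97) had a read of each. The median cell of either group read 6 of the 10 genes, over ranges of 3 to 9 and 2 to 9.

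Correlations among the 10 genes across cells were weak. For the 6 read in at least 50% of cells of both groups (Stxbp2, Snap23, Stx3, Vamp8, Rab27b and Unc13d), the 15 pairwise Spearman correlations of log2(CPM + 1) had a median of 0.03 in mature mast cells (-0.06 to 0.26, the highest for Stx3 and Vamp8) and 0.06 in BMCPs (-0.16 to 0.27, the highest for Stx3 and Rab27b). These are descriptions over cells that share a library pool and differ in depth, and correlations of this size in sparse counts are no finding. Among 2136 genes read as widely, the closest in pattern, by the lower of the 2 within-group correlations, were Lhfp for Stxbp2 (0.238), Hk1 for Snap23 (0.217), Rap1b for Stx3 (0.231), Psme1 for Vamp8 (0.237), Tceal9 for Rab27b (0.230) and Ptpn6 for Unc13d (0.215). The next in order were Sla and Anpep for Stxbp2, Fdx1 and Efhd2 for Snap23, Abcb1b for Stx3, Nsfl1c and Gm7776 for Vamp8, Gm18969 and Selenos for Rab27b, and Efhd2 and Gm11539 for Unc13d. Their lower correlations ran from 0.187 (Selenos) to 0.221 (Nsfl1c).

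**Figure D4:**
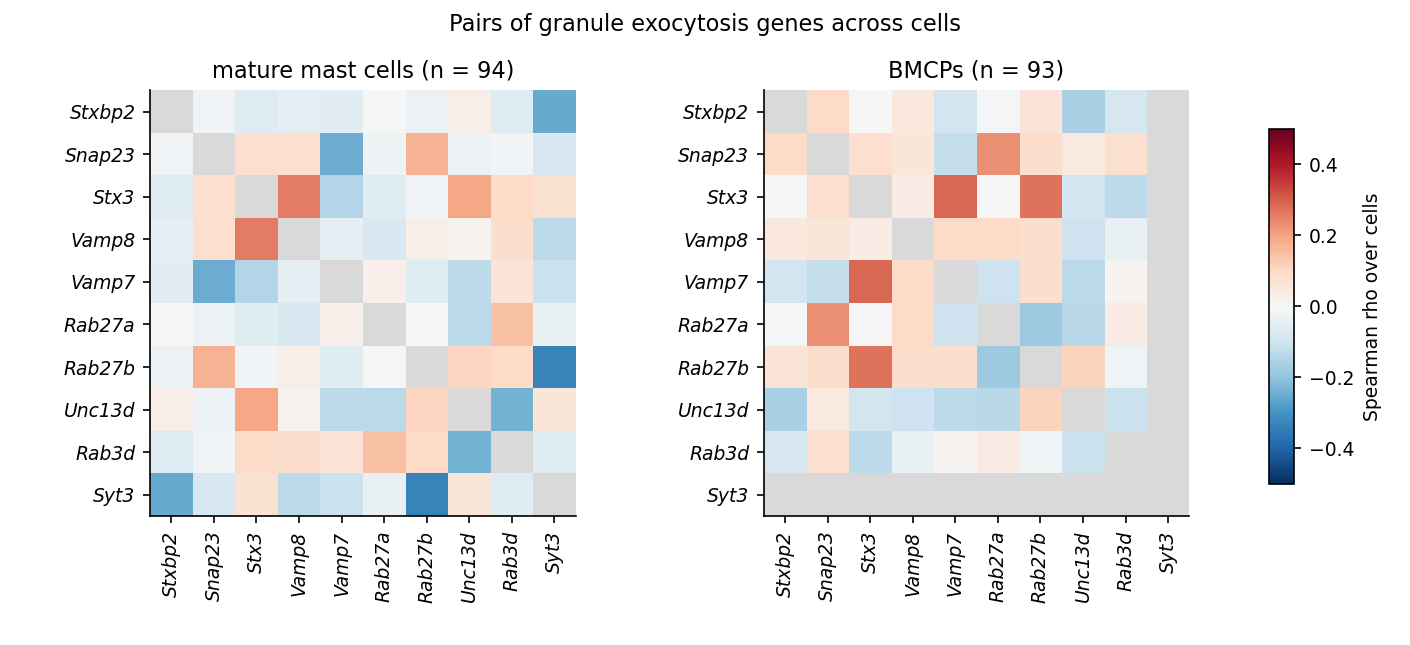
Spearman correlation of log2(CPM + 1) for each pair of the 10 genes over mature mast cells (n = 94) and over BMCPs (n = 93), red positive and blue negative, grey on the diagonal and where a gene had no reads. The highest value among the 6 widely read genes is 0.27, for Stx3 and Rab27b in BMCPs.

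Within their families, compared per kilobase of exon, Stxbp2, Unc13d, Rab27b, Vamp8 and Rab3d were the main form in both groups. Stxbp2 made up 93.9% of the Munc18 family level in the mature cells and 99.6% in the BMCPs, and its relative Stxbp3 stood at 23.0 and 1.99 CPM. Unc13d made up 94.6% and 96.8% of the Munc13 family, and Rab27b 88.5% and 78.9% of the Rab27 pair. Vamp8 was the leading VAMP with 56.98% and 66.7%, followed by Vamp3 with 20.99% and 13.8%. The VAMP share was computed without Vamp7, a longin.

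Syntaxins and SNAP-25 family genes were more mixed. The syntaxin family was taken as syntaxins 1 to 4 and 11 only. Within this set Stx4a, a plasma membrane syntaxin, had the highest level per kilobase (41.5 and 70.5 CPM per kb) and Stx3 the second (31.9 and 41.7). Stx11, a syntaxin of cytotoxic granule release, made up 20.1% and 9.19% of the set. Stx7, which lies outside the set, was above Stx3 per kilobase in mature mast cells and below it in BMCPs. Stx3 and Stx4a were clearly read together in 24 mature mast cells and 19 BMCPs, Stx3 without Stx4a in 26 and 22, and Stx4a without Stx3 in 19 and 29. Snap23 led its family in mature mast cells with 40.5 CPM per kb against 25.2 for Snap29 and 23.2 for Snap47. In BMCPs Snap47, at 40.9 CPM per kb, was above Snap23 at 32.7. BMCP 52 alone held 2720 of the 12961 BMCP reads of Snap47 and had no read of Snap23. Whether the order holds without that cell was not tested. Snap47 was clearly read in 19 BMCPs and Snap23 in 35, and in CPM Snap47 (108.4) was below Snap23 (140.5). Snap25, the neuronal form, had no read in either group.

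Rab3d made up 60.9% of the Rab3 family in the mature cells and 85.8% in the BMCPs, the remainder being almost wholly Rab3a, at 19.2 and 4.28 CPM. Of 17 synaptotagmins, Syt3 and Syt11 were the only ones at 5 CPM or more in a group. Syt11, which lacks calcium binding, stood at 13.8 CPM in the mature cells and 2.40 CPM in the BMCPs and was clearly read in 5 and 1 cells.

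A list of 132 other exocytosis genes, chosen by function, gave the surroundings. Of these, 91 reached 5 CPM in a group, with a median log2 ratio of -0.08, 40 positive and 51 negative. Past 2-fold were 11 higher in mature mast cells and 14 higher in BMCPs, near the shares of all genes (9.9% and 19.2%), so the genes named next are a description of the list. Ratios of single genes in this list are by endogenous reads only. Under ERCC scaling the median of the list was 0.82 and 48 genes were past 2-fold against 25. Which genes stayed within 2-fold, and some directions, thus depend on the scaling. Among the 22 SNARE genes, Vti1a was higher in mature mast cells (log2 1.37, clearly read in 27 and 12 cells), and Vamp5 (-1.37) and Stx18 (-1.19, and -0.94 without BMCP 72) were higher in BMCPs. The SNARE genes with most reads, Stx7 (0.39), Vti1b (-0.49) and Stx5a (-0.75), whose proteins act in endosome and Golgi fusion, stayed within 2-fold.

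In the Rab list, Rab38, a GTPase of lysosome-related organelles, was at 0.0757 CPM in the mature cells and 131.5 CPM in the BMCPs (log2 -6.94), with clear reads in 0 and 14 cells. Its paralog Rab32 was read clearly in 66 and 51 cells, and all but 3 of the 14 BMCPs with clear Rab38 reads also had clear Rab32 reads. Rab19 was at 122.3 and 465.8 CPM (log2 -1.92, from -2.04 to -1.83 on leaving out any 1 cell), clearly read in 39 and 61 cells. Rab3a (1.93, and 2.67 without BMCP 8), Rab5a (1.10, and 0.94 without mature mast cell 75), Rab12 (2.22) and Chml (2.66) were higher in mature mast cells and Madd (-1.46), a Rab3 exchange factor, in BMCPs. Mature mast cell 21 held 69.6% of the Chml reads of its group, and the ratio was 1.35 without it. Rab37 (458.7 and 467.7 CPM) and Rab44 (362.2 and 470.3), among the genes of the list with most reads, stayed within 2-fold.

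Among the 13 Sec1/Munc18 proteins and SNARE regulators, Stxbp3 was higher in mature mast cells (3.00, clearly read in 8 and 2 cells). Stxbp5 (-2.69), Vipas39 (-1.32), Stxbp4 (-3.22) and Napb (-2.93) were higher in BMCPs, of which Stxbp5 was -3.99 without mature mast cell 78, Stxbp4 -1.61 without BMCP 16 and Napb -1.59 without BMCP 58. Napa and Nsf, general fusion factors, and the Sec1/Munc18 gene Scfd1 had ratios of 0.44, -0.35 and 0.50. Of Munc13 proteins and Rab effectors, Unc13b was higher in mature mast cells (1.03, but 0.82 without mature mast cell 48 and 1.84 without BMCP 41) and Sytl1 in BMCPs (-2.71, 4 and 11 cells, and -3.46 without mature mast cell 56), with Mlph at 0.62 and Sytl3 at 0.15.

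Of the 9 exocyst genes, Exoc6 (1.43, and 2.44 without BMCP 37) was higher in mature mast cells and Exoc2 (-2.31) and Exoc8 (-1.90) in BMCPs. BMCP 46, the cell with B cell genes, held 30.1% of the BMCP reads of Exoc8, and the ratio was -1.42 without it and -2.64 without mature mast cell 74. Exoc7, Exoc3 and Exoc4 had ratios of 0.18, -0.44 and 0.43. Of the 19 genes of lysosome-related organelle biogenesis, Bloc1s5 (1.32, clearly read in 30 and 10 cells) and Lyst (1.00, and 0.52 without mature mast cell 74) were higher in mature mast cells. Nbeal2 (-2.27) and Hps3 (-1.38, but -0.76 without BMCP 40 and -2.52 without mature mast cell 86) were higher in BMCPs. Snapin, Ap3b1 and Dtnbp1 stood at -0.08, -0.23 and -0.12, and of the calcium sensors Esyt1 (-0.39) and Esyt2 (-0.60) stayed within 2-fold while Syt11 was at 2.12 (3.47 without BMCP 14).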

How the data were processed

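Complementary DNA of single cells was primed on poly(A) tails, amplified with 23 PCR cycles with ERCC spike-in RNA in each well, and sequenced as 50 bp single-end reads without molecular identifiers, per the labels' protocols. The deposited table holds raw read counts per gene and cell, with no normalization. The submitters' processing notes name GSNAP, HTSeq 0.5.3p3 and mm10. Neither the annotation release nor the strand setting is given in the sources used here. Reads without a feature (12.5% in kept mature mast cells, 16.2% in kept BMCPs), ambiguous reads (2.97% and 3.24%), reads without an alignment (13.1% and 14.9%) and ERCC reads stayed out of totals.

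Symbols, coordinates and exon lengths came from GENCODE M21 on GRCm38, which matched 45229 of 46078 identifiers (98.2%). The counts of a group's kept cells were pooled and scaled to their endogenous total (CPM), and log2 ratios used a pseudocount of 1 CPM. Thinning drew 100000 reads per cell with a fixed seed. Doublets were not called, since wells were sorted to hold single cells. The labels tie no cell to a mouse, so no test was run, and edgeR 4.0.16 and DESeq2 1.42.0 (R 4.3.3) supplied scaling factors only. Tables were made with Python 3.11.15, numpy 2.4.6, scipy 1.17.1 and pandas 2.3.3, figures with matplotlib 3.10.9, and the computation was tested on simulated data.

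The 10 genes and all lists were chosen with earlier results of these data known. Beyond the 10, the text names the 3 most abundant genes of each of 7 exocytosis lists, every list gene at 5 CPM or more that passed 2-fold, paralogs, and the 3 genes closest in pattern to each widely read gene. A few genes that this rule takes are not reported here. Alternatives were other scaling factors, ERCC scaling, totals without granule genes, per-cell means and medians, thinning, pseudocounts, filters, number blocks of the columns and leaving out each cell.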

Additional observations from a re-analysis of the deposited data

How the results depend on the processing

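Most group ratios depended on the scaling, and the median of all genes moved with them. Against that median Stxbp2 stood at -0.212, -0.219, -0.211 and -0.225 with endogenous reads, TMM, DESeq2 and ERCC scaling. In that order Vamp7 stood at 0.991, 0.981, 0.995 and 0.966 and Rab27a at -0.850, -0.862, -0.843 and -0.885. Syt3 moved more, at 4.22, 4.11, 4.38 and 3.80. Thinning to 100000 reads turned the Rab3d ratio from 0.19 to -0.14, and the part of depth in the ratios was not tested. Each group was 1 pooled sample, so the spread between mice is unknown. No paired analysis was possible because no result comes from a test and the cell numbers in the labels only name cells. The number blocks of the columns, the alternatives to the shares of cells, and leaving out each gene's top cell were chosen after seeing the data.

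The median log2 ratio of the 10 genes (-0.15) was 0.063 with TMM factors, -0.42 with DESeq2 size factors, 0.76 with ERCC scaling (0.55 without BMCP 55), 0.055 with granule genes out of the totals, 0.13 from per-cell medians, and -0.24 and -0.053 in the first and the other number block. Leaving out each cell gave -0.22 to -0.074. In the same order the ratio of their summed reads (-0.19) was 0.018, -0.47, 0.72 (0.54), 0.010, 0.14, -0.30 and -0.10, and -0.25 with thinned cells. The number past 2-fold (2) was 1 with TMM factors, granule genes out of the totals, a pseudocount of 5 CPM, the first block, and at the lowest on leaving out a cell, and 4 with ERCC scaling.

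The median of the other exocytosis genes (-0.08) was 0.13 with TMM factors, -0.37 with DESeq2, 0.82 with ERCC (0.61 without BMCP 55), 0.12 without granule genes, 0.00 from per-cell medians, -0.025 with thinned cells, -0.024 with no minimum CPM, and 0.0091 and -0.14 in the blocks. Their number past 2-fold (25) was 48 with ERCC scaling (42 without BMCP 55) and 14 from per-cell medians. The median of all genes (-0.25) was 0.67 with ERCC scaling and 0.47 without BMCP 55.

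Single genes changed sign as follows. With TMM factors, Rab27b was 0.12 and Unc13d 0.0031. With DESeq2, Rab3d was -0.080. With ERCC scaling, and without BMCP 55, Stxbp2 was 0.45 and 0.43, Stx3 0.53 and 0.32, Vamp8 0.51 and 0.30, Rab27b 0.82 and 0.61, and Unc13d 0.70 and 0.49. With granule genes left out, Rab27b was 0.12. Rab3d was -0.12 from per-cell means, -0.14 thinned and between -0.018 and 0.46 on leaving out a cell. From per-cell medians, Stxbp2 was 0.26, Stx3 1.80 and Unc13d 3.40. In the first block Snap23 was -0.011 and Rab3d -0.16, and in the other Rab27b was 0.14.

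Cells with all of Stxbp2, Snap23, Stx3 and Vamp8 made up 23.4% and 13.98% with at least 10 reads, 19.1% and 12.9% with at least 50, and 26.6% and 15.1% after thinning. The genes read per cell had medians of 5 and 4 at each of these settings, and 5 in BMCPs with no cell filter. The cause of these shifts was not tested. All 120 alternative shares of cells lay within the interval of the share reported, but many of them could not move. Leaving out BMCPs 46 and 80 or the cell filter changes no mature share, and Syt3 was at 0 in BMCPs throughout. The others reuse the same cells, so they do not test the shares.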
